A study of Mus musculus with 6 samples.

Results

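A set of 9 complement genes was followed in the testis RNA of mice that had received fecal microbiota from ethanol-drinking or control donors. They were C1qa, C1qb, C1qc, C2, C3, C4b, Cfi, Cd46 and Cd59b, taken by gene symbol as a set of known function, and all 9 were found among the 54532 genes of the deposited table. The mice were male C57BL/6, had arrived at 3 weeks of age and had shared a cage for 2 weeks before they were divided at random. The alcohol-FMT group (FMT, fecal microbiota transplantation) was given, by gavage, stool of donors that drank 10% ethanol (for 8 weeks by the sample records and 10 weeks by the study's methods), and the control-FMT group stool of donors that drank water. Gavage was repeated for 10 weeks in both groups, all recipients drank water themselves, and no antibiotics preceded the transplantation. Whole testis of 3 control-FMT mice (16, 19 and 21) and of 3 alcohol-FMT mice (18, 24 and 31) was sequenced, with a library of its own for each mouse. The groups differed in the donor's stool and not in their own ethanol intake.

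Levels are given in FPKM (fragments per kilobase of gene, scaled for the depth of each library by the authors). The length used is the one deposited for each gene, which need not be that of its main transcript. It was 1931 bases for C1qc and 1300 for Cd59b, whose transcripts with the longest coding sequence have 1203 and 796 bases. Orders and ratios between genes therefore depend on these lengths as well, while comparisons of 1 gene between mice do not. The 6 libraries held 16504096 to 18633124 fragments in genes, 28444 to 29480 genes had a fragment, Pearson's r between libraries over the genes tested was 0.979 to 0.990. The tissue matched its label, since 6 spermatid markers summed to 13991 to 21628 FPKM and 6 Leydig cell markers to 290.4 to 466.1 FPKM. The 5 hepatocyte markers, which would mark liver as a source of complement RNA, summed to no more than 2.05 FPKM. Alcohol-FMT mouse 31 stood apart in 2 marker lists, with 6 epididymis markers at a sum of 5.65 FPKM against 0.961 to 1.94 in the other mice and 5 neutrophil markers at 3.80 FPKM against 0.968 to 1.21, and the part of these cells in the results was not tested beyond leaving that library out. The 5 red blood cell markers summed to 20.3 to 23.0 FPKM in the control-FMT and 13.0 to 20.8 FPKM in the alcohol-FMT mice, and 1 of the 3 tested was lower at an unadjusted p up to 0.05.

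Complement is a protein cascade of the blood and tissue fluid that tags and lyses cells. C1q binds antibody or altered surfaces and starts the classical pathway, C4 and C2 form the enzyme that cleaves C3, and cleaved C3 is deposited on the target. The host's own cells are protected by regulators, among them factor I, CD46 and CD59. In the testis such protection has been studied chiefly on sperm and on the germ cells behind the blood-testis barrier, while tissue macrophages are a well known source of C1q.

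Cd59b and C4b each have a near copy beside them, which bears on how far their values belong to them alone. Cd59b lies 4613 bases from Cd59a on chromosome 2, and C4b lies 65209 bases from C4a on chromosome 17. Their coding start and one exon are shown here because the capitals, which mark every base that differs within the pair, show how many bases in a stretch of this length tell the copies apart. The sequences are those of GENCODE M21 transcripts on GRCm38. The first 90 coding bases of Cd59b (chr2:104078876-104081025, plus strand, split by an intron) and of Cd59a (chr2:104104189-104110768, plus strand, split by an intron) differ at 4 bases.
Cd59b: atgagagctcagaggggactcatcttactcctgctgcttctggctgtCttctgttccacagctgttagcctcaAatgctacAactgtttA
Cd59a: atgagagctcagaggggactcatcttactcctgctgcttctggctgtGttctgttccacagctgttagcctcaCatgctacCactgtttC
For the C4 pair the 90 bases within 1 exon that differ most are shown, from exon 21 of each gene (C4b chr17:34735430-34735519 and C4a chr17:34816086-34816175, both minus strand), with 14 differing bases.
C4b: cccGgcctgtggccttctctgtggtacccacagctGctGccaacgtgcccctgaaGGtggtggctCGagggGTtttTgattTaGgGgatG
C4a: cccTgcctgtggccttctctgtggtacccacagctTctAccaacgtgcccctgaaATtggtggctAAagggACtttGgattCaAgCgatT
Over the whole coding sequence, Cd59b and Cd59a were 85.03% identical across 354 aligned bases, and the longest run they share was 47 bases. The C4 transcripts were 96.14% identical across 5367 aligned bases, with a longest shared run of 433 bases. A window of 100 bases of the Cd59b transcript occurred unchanged in a Cd59a transcript at 0.72% of positions, and a window of 100 bases of C4b occurred in C4a at 16.5% of positions. Fragments from such windows cannot be assigned by sequence, and how the authors assigned them is not given in the sources used here. The C1q chains, at 60.68 to 62.39% coding identity, shared no window of 50 bases.

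The C1q chains stand at the first step of the classical pathway. C1qa, C1qb and C1qc code for the A, B and C chains that join in every C1q molecule, and the genes lie side by side on the minus strand of chromosome 4, within 18675 bases. C1qb ends 3616 bases before C1qc, and C1qc ends 2851 bases before C1qa.

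C1qb (chr4:136880129-136886187) had the highest level of all 9 genes. Its level was 11.6, 11.7 and 10.5 FPKM in control-FMT mice 16, 19 and 21 and 9.48, 10.7 and 10.2 FPKM in alcohol-FMT mice 18, 24 and 31, from 174 to 229 fragments. Mouse 18 was lowest, and the groups overlapped only through control-FMT mouse 21, which lay below mouse 24. The means were 11.3 ± 0.664 and 10.1 ± 0.615 FPKM (SD, n = 3 in each group), a log2 fold change of -0.14 with a standard error (SE) of 0.078 on the log2(FPKM + 1) scale. The 95% interval was -0.33 to 0.04, and the adjusted p was 0.745 by limma (unadjusted 0.112). After a correction for the trend of each library against gene length the difference was -0.21 with an unadjusted p of 0.0227. In whole testis, fewer cells of a type and less RNA in each cell cannot be told apart, here or in any result that follows.

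C1qa (chr4:136895917-136898803) varied far more within a group. Its level was 9.29, 6.23 and 4.82 FPKM in control-FMT mice 16, 19 and 21, and 5.70, 7.90 and 7.01 FPKM in alcohol-FMT mice 18, 24 and 31. The control-FMT mice thus held both the highest and the lowest value, and the alcohol-FMT mice lay between them. With exact Poisson 95% intervals, which cover counting error only, mouse 16 was at 7.97 to 10.8 FPKM and mouse 21 at 3.85 to 5.96 FPKM, so these mice of 1 group differed by more than counting error. The means were 6.78 ± 2.29 and 6.87 ± 1.10 FPKM (SD, n = 3 each), with a log2 fold change of 0.05 (SE 0.21, interval -0.45 to 0.54) and an adjusted p of 0.972 in limma.

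C1qc (chr4:136889804-136893065) was the lowest of the 3 chains in FPKM. Its fragments, 89 to 164 in a library, were about as many as the 85 to 175 of C1qa. FPKM divides them by 1931 bases for C1qc and by 1040 bases for C1qa, so this order depends on the deposited lengths. Its level was 3.98, 3.82 and 3.48 FPKM in the control-FMT mice and 2.73, 4.56 and 3.78 FPKM in the alcohol-FMT mice, in the same order of mice. Here the alcohol-FMT group held both extremes, mouse 18 and mouse 24. The log2 fold change was -0.04 (SE 0.147, interval -0.38 to 0.31, adjusted p = 0.970, limma).

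Although the chains go into the protein together, the RNA levels of C1qb and C1qa kept no fixed ratio. C1qb was above C1qa in 6 of 6 libraries, by a ratio of 1.245 in control-FMT mouse 16 to 2.18 in control-FMT mouse 21. The ratio of C1qb to C1qc was 2.91, 3.08 and 3.02 in the control-FMT mice and 3.47, 2.35 and 2.70 in the alcohol-FMT mice. It was close to constant in the control-FMT mice and spread to both sides in the alcohol-FMT mice. Counting error alone, 6.94% of the level for C1qb and 8.82% for C1qc at their mean fragments, also spreads this ratio. The difference in spread was not tested, and whether this ratio was fixed is not settled. Summed over the chains, C1q RNA was at 18.8 to 24.8 FPKM in the control-FMT and 17.9 to 23.2 FPKM in the alcohol-FMT mice.

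**Figure D1:**
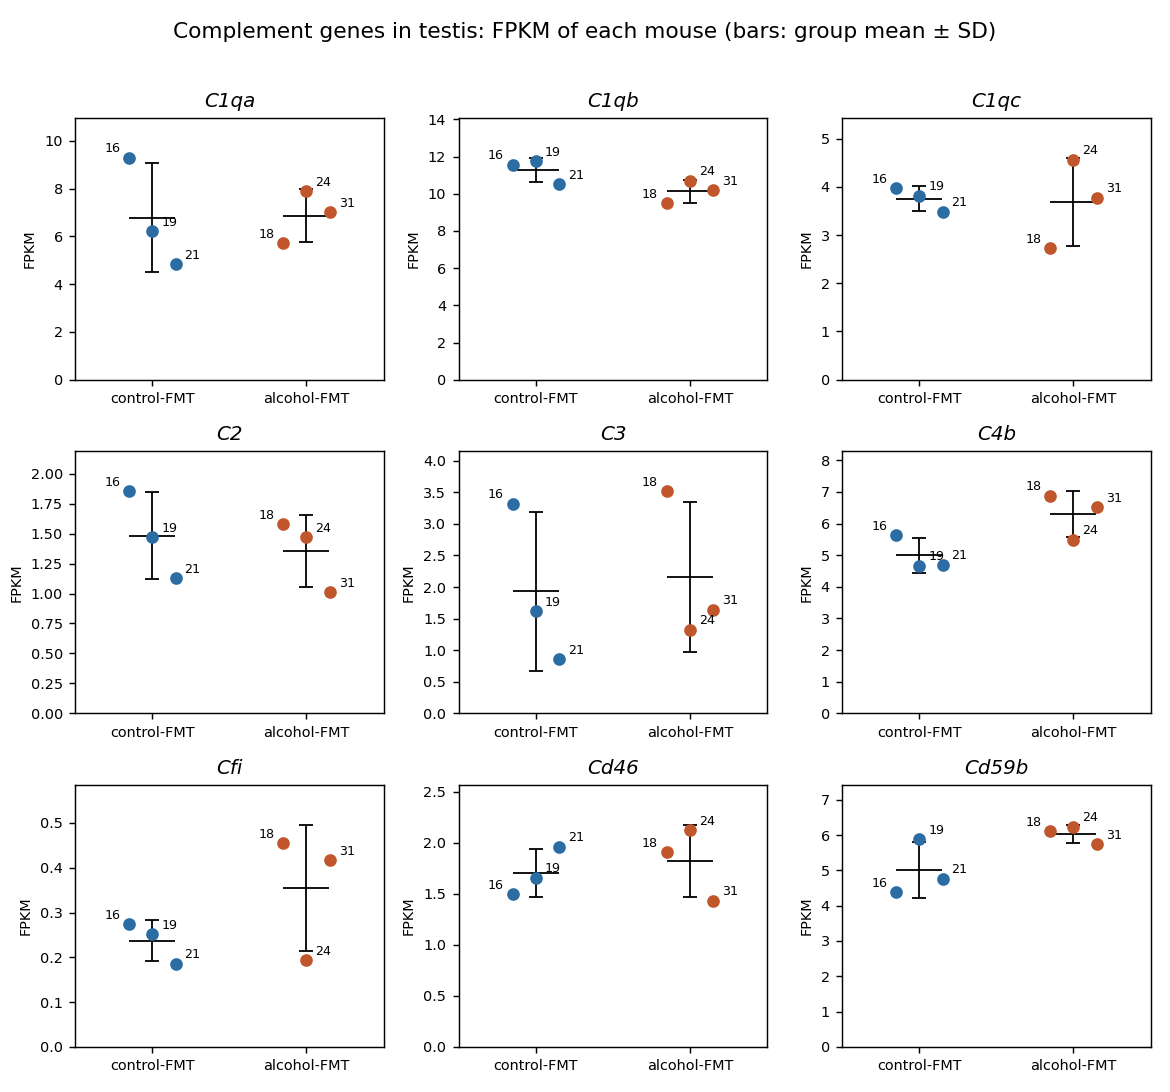
Level in FPKM (vertical axis, from 0, its own scale for each gene) of the 9 complement genes in each mouse, labelled by number, with the mean of each group as a horizontal bar and the SD as error bars (n = 3 in each group). The groups overlap in all 9 panels, C4b and Cd59b lie higher on average in the alcohol-FMT mice, and C3 is high in 1 mouse of each group.

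The promoters of C1qb and C1qc are shown because these neighbours were read at different FPKM in every library, over deposited lengths of 1088 and 1931 bases. They are the RefSeq windows from 250 bases before to 50 bases after the start site on GRCm38.p6, on the minus strand, at chr4:136886151-136886450 for C1qb and chr4:136892865-136893164 for C1qc. The capitals mark GAGGAA, a core sequence that ETS factors such as PU.1 of macrophages can bind, searched on both strands.
C1qb: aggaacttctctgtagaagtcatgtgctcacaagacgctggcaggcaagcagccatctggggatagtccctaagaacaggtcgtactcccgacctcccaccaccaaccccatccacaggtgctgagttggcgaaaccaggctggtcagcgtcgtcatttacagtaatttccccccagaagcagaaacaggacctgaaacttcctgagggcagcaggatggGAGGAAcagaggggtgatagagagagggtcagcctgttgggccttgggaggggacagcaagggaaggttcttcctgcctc
C1qc: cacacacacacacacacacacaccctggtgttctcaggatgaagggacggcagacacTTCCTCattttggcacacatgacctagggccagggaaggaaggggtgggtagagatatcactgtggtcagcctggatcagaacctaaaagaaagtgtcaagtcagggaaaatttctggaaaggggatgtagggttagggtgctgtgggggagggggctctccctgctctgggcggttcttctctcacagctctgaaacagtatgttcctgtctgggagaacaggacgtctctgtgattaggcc
The match began at position -30 in C1qb, and at -193 in C1qc, where it is written TTCCTC because it lies on the other strand. The motif is common, with a match in 28.3% of the 32851 promoters of the same length, so its presence in both is a description of these windows and no more. Of the 9 genes, 5 had a promoter in this table.

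C4b was the 1 gene of the 9 with a difference at an unadjusted p up to 0.05. C4b (chr17:34728380-34743882, minus strand) codes for complement C4, whose larger fragment binds to the target and forms, with C2, the enzyme that cleaves C3. Its level was 5.63, 4.67 and 4.69 FPKM in control-FMT mice 16, 19 and 21 and 6.88, 5.49 and 6.52 FPKM in alcohol-FMT mice 18, 24 and 31, from 453 to 682 fragments. Of the alcohol-FMT mice, 18 and 31 were above every control-FMT mouse, and mouse 24 was below control-FMT mouse 16. The means were 4.998 ± 0.551 and 6.30 ± 0.725 FPKM (SD, n = 3 each). The log2 fold change was 0.28 with an SE of 0.107 and an interval of 0.03 to 0.53.

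The unadjusted p of C4b was 0.0331 and the adjusted p was 0.682 by limma. Among all 15206 genes tested, 4.93% were higher at this unadjusted threshold, 2.34% were lower, and 0% passed the adjusted one (limma-voom on the fragments called 1112 at the unadjusted threshold and 0 at the adjusted one). Read against that, 1 higher and 0 lower of the 8 complement genes tested is near the background. C4b fell short of the unadjusted threshold in limma when control-FMT mouse 19 or 21 was left out (an unadjusted p of 0.102 in both fits) and when alcohol-FMT mouse 18 (0.0855) or 31 (0.0874) was left out. Higher calls made up 67.8% of all calls here, but 46.6% when libraries were scaled by their totals and 50.2% when the trend against gene length was taken out, and C4b passed under both, at 0.26 and 0.29 on the log2 scale.

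The values of its copy C4a were low. C4a was at 0.623, 0.477 and 0.666 FPKM in the control-FMT mice and 0.593, 0.493 and 0.851 FPKM in the alcohol-FMT mice. The ratio of C4b to C4a was 7.05 to 11.6 over the 6 libraries. C4a was not among the genes tested, since its mean lay under the minimum of 1 FPKM.

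C2 (chr17:34862604-34898265, minus strand), the protease part of the same enzyme, was at a low level in every mouse. It was at 1.85, 1.47 and 1.13 FPKM in control-FMT mice 16, 19 and 21 and at 1.58, 1.47 and 1.01 FPKM in alcohol-FMT mice 18, 24 and 31, from 72 to 130 fragments. The values of the groups interleave almost fully. The log2 fold change was -0.08 (SE 0.146, interval -0.42 to 0.27, adjusted p = 0.930, limma). Gm20547, a protein-coding gene that overlaps C2 on the same strand, was at a mean of 0 FPKM. How reads shared by C2 and Gm20547 were assigned is not given in the sources used here. Zbtb12, on the opposite strand within the C2 span, was at a mean of 0.786 FPKM. Whether the reads were counted by strand is not given in the sources used here, so reads from the overlap of C2 and Zbtb12 cannot be told apart.

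C3 was the most variable of the 9 genes, and its variation did not follow the groups. C3 (chr17:57203970-57228136, minus strand) is the protein on which all pathways of complement meet. In control-FMT mice 16, 19 and 21 it was read at 3.32, 1.62 and 0.860 FPKM, and in alcohol-FMT mice 18, 24 and 31 at 3.52, 1.33 and 1.64 FPKM. One mouse of each group, 16 and 18, stood well above the others, and the highest level was 4.09 times the lowest. The coefficient of variation over the 6 mice was 53.8%, while counting error alone would give 7.32% at a mean of 186.7 fragments. The exact Poisson interval of control-FMT mouse 16 was 2.96 to 3.71 FPKM and that of control-FMT mouse 21 was 0.677 to 1.08 FPKM.

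The means of C3 were 1.93 ± 1.26 and 2.16 ± 1.185 FPKM (SD, n = 3 each). The log2 fold change was 0.13, with an SE of 0.352 and an interval of -0.70 to 0.96, the widest of the 8 genes tested, and the adjusted p was 0.953 by limma. The direction turned when 1 library was left out, to -0.15 without control-FMT mouse 21 and to -0.16 without alcohol-FMT mouse 18. The coefficients of variation of C4b and C2, its partners in the cascade, were 16.2% and 21.6%, and the level of C3 relative to C4b ran from 0.183 in control-FMT mouse 21 to 0.589 in control-FMT mouse 16.

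The promoter of C3 is shown as that of the gene with this spread, from RefSeq on GRCm38.p6 (chr17:57228087-57228386, minus strand). Capitals mark TTGCNNAA, a pair of half-sites of C/EBP factors, and TATAAA, the core of a TATA box, both searched on both strands.
C3: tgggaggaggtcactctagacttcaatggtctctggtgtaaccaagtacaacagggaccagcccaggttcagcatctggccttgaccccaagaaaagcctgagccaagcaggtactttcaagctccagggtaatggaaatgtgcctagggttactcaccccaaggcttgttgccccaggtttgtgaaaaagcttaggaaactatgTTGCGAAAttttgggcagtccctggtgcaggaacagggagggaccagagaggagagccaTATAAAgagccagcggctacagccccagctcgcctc
The TTGCNNAA match began at position -45 and the TATAAA match at position 15, counted from the start site that RefSeq gives. Matches to TTGCNNAA occurred in 10.8% and matches to TATAAA in 13.6% of promoters of this length.

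The regulators among the 9 genes act at 2 points: factor I and CD46 act on deposited C3b and C4b proteins, and CD59 acts on the final pore. Cd59b (chr2:104069849-104091187, plus strand) codes for a lipid-anchored surface protein that stops the assembly of the membrane attack complex, and mice carry it as a duplicate of Cd59a. Its level was 4.38, 5.88 and 4.77 FPKM in control-FMT mice 16, 19 and 21 and 6.11, 6.24 and 5.74 FPKM in alcohol-FMT mice 18, 24 and 31, from 103 to 151 fragments. The groups overlapped only because control-FMT mouse 19 was above alcohol-FMT mouse 31. The means were 5.01 ± 0.782 and 6.03 ± 0.260 FPKM (SD, n = 3 each), and the alcohol-FMT mice were the tighter group.

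The log2 fold change of Cd59b was 0.23 with an SE of 0.106 and an interval of -0.02 to 0.48. The unadjusted p was 0.0619 and the adjusted p was 0.689 by limma. Without control-FMT mouse 19 the log2 fold change was 0.34 with an unadjusted p of 0.0101, and without control-FMT mouse 16 it was 0.16 with an unadjusted p of 0.202. With protein-coding genes alone in the fit the unadjusted p was 0.0470, and with the gene length trend taken out it was 0.176 at a log2 fold change of 0.17. Cd59a was at 6.34 to 9.50 FPKM, 1.11 to 1.76 times Cd59b, with a log2 fold change of 0.14 (SE 0.138, adjusted p = 0.863, limma). That ratio rests on deposited lengths of 1811 bases for Cd59a and 1300 for Cd59b, whereas the transcripts compared above have 1806 and 796. Which copy had more RNA is thus not settled. Control-FMT mouse 19, the highest of its group in Cd59b, was the lowest of its group in Cd59a, at 6.50 FPKM. Alcohol-FMT mouse 31 was the lowest of its group in both.

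Cd46 (chr1:195036826-195092249, minus strand) codes for a membrane cofactor with which factor I cuts deposited C3b and C4b, and in mice it is known mainly from the acrosome of sperm. It was at 1.496, 1.66 and 1.96 FPKM in control-FMT mice 16, 19 and 21 and at 1.91, 2.13 and 1.43 FPKM in alcohol-FMT mice 18, 24 and 31, from 200 to 301 fragments. The alcohol-FMT group held both the highest and the lowest mouse. The log2 fold change was 0.06 (SE 0.123, interval -0.23 to 0.35, adjusted p = 0.941, limma). Of the annotated RNAs, 5 noncoding or unclassified ones overlap the Cd46 span, and the most abundant of them, Gm37366 on the opposite strand, had a mean of 0.426 FPKM. Reads from Cd46 and from RNAs opposite to it cannot be told apart where counting ignored the strand.

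Cfi (chr3:129835884-129875332, plus strand) codes for factor I, the serine protease that inactivates deposited C3b and C4b, made mainly by the liver. It was close to the limit of these libraries, at 0.274, 0.251 and 0.186 FPKM in the control-FMT mice and 0.454, 0.193 and 0.417 FPKM in the alcohol-FMT mice, from 7 to 17 fragments. Alcohol-FMT mice 18 and 31 were the highest, but the exact Poisson interval of mouse 18, 0.265 to 0.727 FPKM, overlapped that of control-FMT mouse 16, 0.137 to 0.490 FPKM. Cfi had a mean under 1 FPKM and so was not among the genes tested. In a fit of 35799 genes with no minimum, its log2 fold change was 0.13 with an SE of 0.089 and an adjusted p of 0.853 by limma. When each library was left out in turn it ran from 0.07 without alcohol-FMT mouse 18 (unadjusted p of 0.463) and 0.09 without alcohol-FMT mouse 31 (0.413) to 0.22 without alcohol-FMT mouse 24 (0.0132).

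Ordered by mean FPKM, and so by fragments over the deposited gene lengths, the genes ran C1qb, C1qa, C4b, Cd59b, C1qc, C3, Cd46, C2 and Cfi. The mean was 10.7 FPKM for C1qb and 0.296 FPKM for Cfi, and C1qb was only the 5117th most abundant of the 15206 genes tested. Few steps in this order were clear of the spread between mice. Only C1qb and C1qa at the top and C2 and Cfi at the bottom had ranges that did not overlap. C4b was above Cd59b in 3 of 6 libraries, and C3 was above Cd46 in 3 of 6, so these neighbours were not separated. Over the 8 genes tested, 5 fold changes were positive and 3 negative, with a median of 0.05 on the log2 scale, against 0.01 over all genes tested. Groups that did not overlap at all occurred for 0 of the 8, against 7.76% of all genes tested with every alcohol-FMT library above every control-FMT library and 5.33% with every one below.

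The 9 genes were then set among 54 genes of the complement system. Of these, 21 were tested, 32 had fragments but lay under the minimum of 1 FPKM, and Fcnb was at 0 in every library. Among the 21, limma placed Cfd and C4b higher and Serping1 lower at the unadjusted threshold of 0.05, 0 passed the adjusted threshold, and the median log2 fold change was 0.003. Over all genes tested, 4.93% were higher and 2.34% lower. Cfd had passed the minimum only through the alcohol-FMT libraries, so its direction was fixed by the filter and C4b and Serping1 are the calls that remain. The levels show which steps of the cascade were read in the testis. Regulators were the most abundant, with clusterin (Clu), a secreted inhibitor of the terminal complex that Sertoli cells make, at 239 to 299 FPKM, and Cd55b, a decay-accelerating factor of the mouse, at 88.6 to 100.3 FPKM. Cd59b and Cd46 were thus far below Cd55b in FPKM, Cd55b standing at 14.8 to 21.1 times Cd59b. The mean of Cd59b, 5.52 FPKM, was nearer to those of Cd55 (7.03) and Cd59a (7.60). Cd46 had more fragments than Cd59b, 200 to 301 against 103 to 151 in a library, over a deposited length of 7603 bases.

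**Figure D2:**
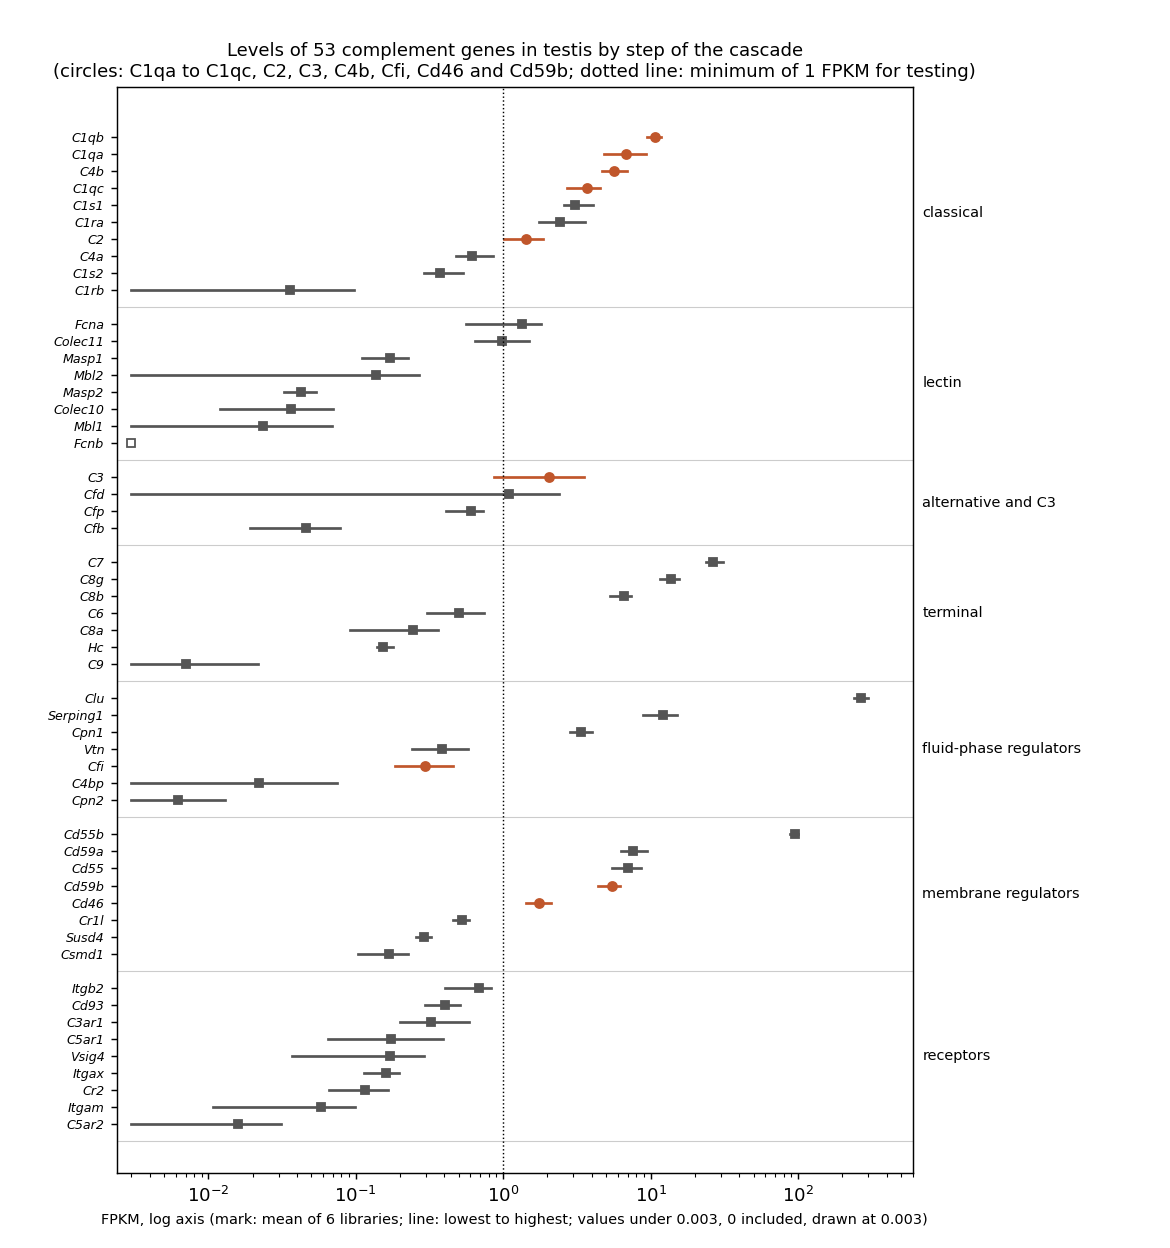
Mean level of 53 of the 54 complement genes over 6 libraries in FPKM (horizontal log axis, values under 0.003 drawn at 0.003), with a line from the lowest to the highest library, grouped by step. Circles are the 9 genes and squares the others, and the dotted line is the minimum of 1 FPKM. Clu at 239 to 299 FPKM and Cd55b at 88.6 to 100.3 FPKM lie far to the right, and all 9 receptors lie left of the line.

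The proteases that work with C1q were present at about the level of C1qc. C1ra, the protease that is activated first within C1, was at 3.58, 2.51 and 2.18 FPKM in the control-FMT and 2.43, 2.07 and 1.75 FPKM in the alcohol-FMT mice, with a log2 fold change of -0.27 (SE 0.154, adjusted p = 0.757, limma). C1s1, which C1r activates and which cuts C4 and C2, was at 2.57 to 4.09 FPKM, with a log2 fold change of -0.12 (SE 0.134, adjusted p = 0.882, limma). The groups overlapped for both. Thus all chains of the first enzyme of the classical pathway were read in each mouse.

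Serping1, which codes for the C1 inhibitor that blocks C1r and C1s, separated the groups. It was at 15.2, 13.4 and 13.3 FPKM in control-FMT mice 16, 19 and 21 and at 11.6, 10.3 and 8.87 FPKM in alcohol-FMT mice 18, 24 and 31. Every alcohol-FMT mouse was below every control-FMT mouse. The means were 13.98 ± 1.02 and 10.3 ± 1.37 FPKM (SD, n = 3 each), with a log2 fold change of -0.42 (SE 0.106, interval -0.67 to -0.17). The unadjusted p was 0.00545 and the adjusted p 0.571 in limma, and it passed the unadjusted threshold in 15 of 15 settings, at -0.50 to -0.32. Of 7 Sertoli cell markers, 6 had negative fold changes, with a median of -0.14 on the log2 scale, and Sox9, Wt1, Dhh and Fshr had every alcohol-FMT library below every control-FMT library, against 5.33% of all genes tested, while 0 of 7 passed the unadjusted threshold. Their sum was 29.9 to 32.6 FPKM in the control-FMT and 27.3 to 36.0 FPKM in the alcohol-FMT mice, where Rhox5 reached 15.6 FPKM in mouse 24. The other somatic lists overlapped in sum, with Leydig markers at 358.4 to 466.1 against 290.4 to 406.0 FPKM (mostly Insl3), peritubular myoid markers at 27.4 to 32.9 against 26.7 to 32.0 FPKM and endothelial markers at 3.57 to 4.26 against 3.30 to 3.90 FPKM, control-FMT first. The part of these cells in the Serping1 values was not tested.

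The alternative pathway, which C3 can start without C1q, was read at low levels. Factor B (Cfb), which binds C3b to form its enzyme, was at 0.0193 to 0.0782 FPKM, from 1 to 4 fragments in a library. Properdin (Cfp), which stabilises that enzyme, was at 0.408 to 0.732 FPKM. Factor D (Cfd), the protease that cleaves factor B, was at 0, 0 and 0.512 FPKM in the control-FMT mice and 2.12, 2.39 and 1.59 FPKM in the alcohol-FMT mice. Of 5 adipocyte markers, of interest because fat cells make factor D, 3 had every alcohol-FMT library above every control-FMT library. The markers were Cidec at 0.149 to 0.350 against 0.381 to 0.543 FPKM, Lep at 0.0176 to 0.0666 against 0.146 to 0.195 FPKM and Car3 at 0 to 0.247 against 0.342 to 2.36 FPKM, control-FMT first. All had a mean under the minimum of 1 FPKM and were not among the genes tested. How often genes at such levels separate the groups in this way was not computed. They rested on few fragments in a library, 5 to 18 for Cidec, 1 to 11 for Lep and 0 to 114 for Car3. Adipoq, the most abundant, overlapped at 11.2 to 13.1 against 11.8 to 15.1 FPKM, as did Plin1, and the summed list was at 11.6 to 14.1 against 13.7 to 16.9 FPKM. Their part in the Cfd values was not tested.

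Downstream of C3 the read-out was uneven. Of the terminal proteins that build the pore, C7 was at 23.7 to 31.2, C8g at 11.6 to 15.7 and C8b at 5.31 to 7.34 FPKM, whereas Hc, the mouse gene of C5, was at 0.139 to 0.179 FPKM and C9 was at 0 to 0.0216 FPKM. Cd55, the broadly expressed decay-accelerating factor, was at 5.51 to 8.65 FPKM, about the level of Cd59b, with a log2 fold change of 0.22 (SE 0.118, adjusted p = 0.744, limma). Cr1l, which codes for Crry, the main membrane regulator of C3 in other mouse tissues, was at 0.457 to 0.590 FPKM, below Cd46 in every mouse. Of the receptors, C3ar1 was at 0.200 to 0.584, C5ar1 at 0.0645 to 0.391 and Vsig4, a macrophage receptor for deposited C3, at 0.0367 to 0.289 FPKM. All 9 receptors listed were under the minimum.

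**Figure D3:**
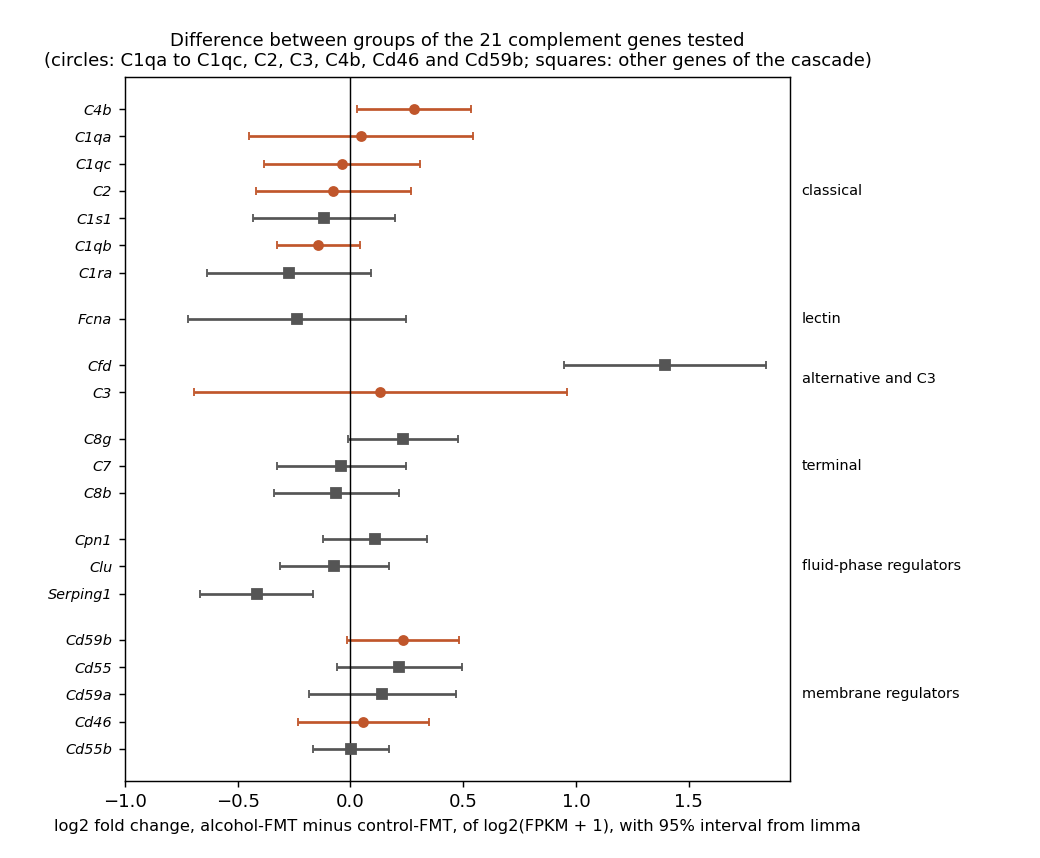
Log2 fold change (alcohol-FMT minus control-FMT, log2(FPKM + 1) scale, horizontal axis) of the 21 complement genes tested, with 95% intervals from limma on 3 against 3 libraries, circles for the 8 genes tested of the 9 and squares for the others. The intervals of C4b and Cfd lie right of 0 and that of Serping1 left of it, and the interval of C3, from -0.70 to 0.96, is the widest of the circles.

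Since C1q is known as a macrophage product, its chains were set beside 13 macrophage markers, of which 9 were tested. Aif1 was the 1 marker at an unadjusted p up to 0.05, at 149, 133 and 138 FPKM in the control-FMT and 165, 195 and 178 FPKM in the alcohol-FMT mice (log2 fold change 0.35, SE 0.085, adjusted p = 0.569, limma). Its level was several times the sum of the other 12 markers, which was 38.4 to 40.2 FPKM in the control-FMT and 30.5 to 39.7 FPKM in the alcohol-FMT mice. Without Aif1, 8 markers were tested, 0 passed and their median log2 fold change was -0.07, against -0.04 for the C1q chains. The receptor Csf1r was at 1.58 to 2.66, lysozyme (Lyz2) at 10.3 to 18.3 and Adgre1, which codes for F4/80, at 1.08 to 1.29 FPKM. Of the 9 markers tested, the groups overlapped for all but Aif1, which was higher in every alcohol-FMT mouse. Among all genes tested, 7.76% had this. Cd163, under the minimum of 1 FPKM and not tested, was at 0.670 to 0.779 against 0.383 to 0.652 FPKM, control-FMT first. The other markers under the minimum overlapped. Alcohol-FMT mouse 18, which had the lowest summed C1q level, also had the lowest Tyrobp, at 0.978 FPKM from 11 fragments. The same mouse had the highest Cx3cr1, at 1.12 FPKM. Alcohol-FMT mouse 31, with the lowest Csf1r and Lyz2, did not have the lowest level of any C1q chain.

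**Figure D4:**
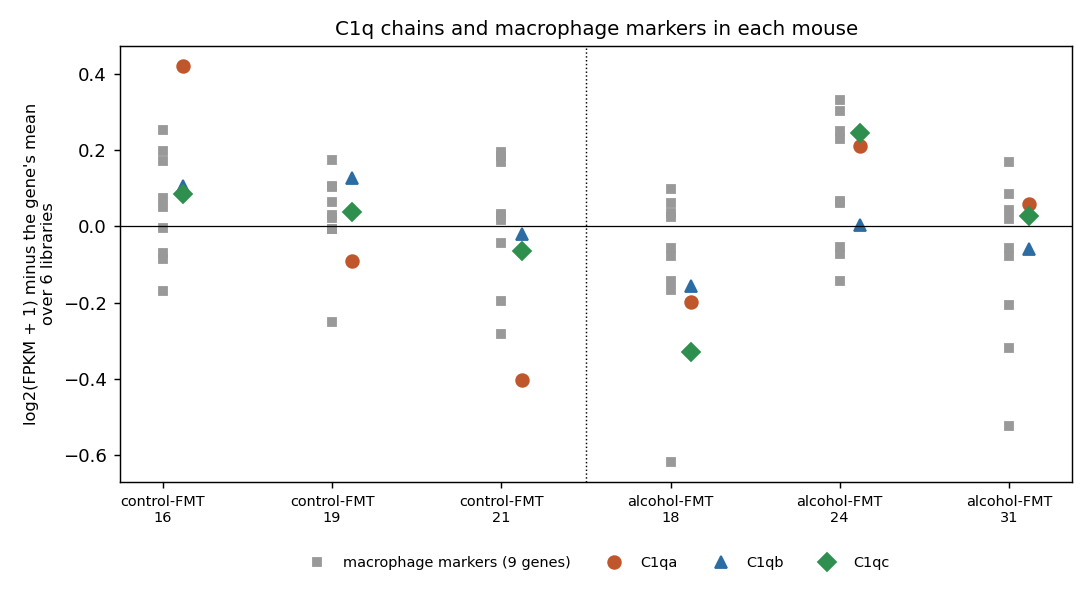
Deviation of log2(FPKM + 1) in each mouse from the gene's mean over the 6 libraries (vertical axis) for C1qa, C1qb and C1qc and for the 9 macrophage markers tested (squares). C1qa is 0.42 above its mean in control-FMT mouse 16 and 0.40 below it in control-FMT mouse 21, while C1qb stays within 0.16 of its mean in each mouse.

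The C1q chains did not rank closest to each other in their profile over the mice. Likeness was measured as the root mean square difference of log2(FPKM + 1), centred on each gene's mean, over the 6 libraries. By this measure C1qc was the 935th most similar of 15205 genes to C1qa, and C1qb the 2784th. Seen from C1qb, C1qc was the 5106th and C1qa the 12789th, since C1qb varied little and many genes of low variation lay nearer to it. C1qb and C1qc differed by 0.133. Counting error, 6.94% of the level for C1qb and 8.82% for C1qc, adds to this difference. The ranks therefore do not show that these profiles differ beyond counting error. The genes whose profile was most like the mean of the 3 chains were Gm41177, 9330104G04Rik, Gm11766, Entpd2 and Nfic, at differences of 0.036 to 0.049, and no macrophage marker was among these 5. The points are 6 libraries that also share depth and scaling, and the order is a description.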

How the data were processed

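Total RNA of 6 testes was sequenced by the authors from TruSeq libraries, and FPKM per gene were deposited by the authors in 1 table of 54532 genes with gene lengths and Ensembl positions on GRCm38. TopHat2 and DESeq2 are named in the methods, while the submitters' processing notes list HISAT2 2.0.5 with mm10 and mm8. Which aligner made the table is not settled. In each library, FPKM times gene length came in whole steps of 1 size (100% of values, tolerance 0.01), which gave the fragments. The FPKM were tested with limma 3.58.1 (R 4.3.3, mean-variance trend, two-sided) on log2(FPKM + 1) for genes with a mean of at least 1 FPKM, 3 against 3 libraries, no covariate, with Benjamini-Hochberg adjustment over 15206 genes and a threshold of 0.05. Fold changes on this scale understate those of low genes. The mice are separate animals. Intervals of single libraries are exact Poisson ones at 95% and cover counting error only. The test was tested on simulated data.

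Alternatives were limma-voom on the fragments, library totals, removal of the gene length trend, a pseudocount of 0.1, a robust prior, protein-coding genes alone, no filter, 10 fragments in 3 libraries, and leaving out each library. The genes, the wider lists and the markers were chosen with earlier results of these data known. Named genes were the 9 members, every gene of the wider list at an unadjusted p up to 0.05, partners and copies of the members, the 5 most similar profiles and a few markers. Clu, Cd55b, C7, C8g, C8b, C9, Fcnb, Colec11, Vtn and the Sertoli, Leydig and adipocyte markers given by name were named after their values were seen. In the counts, 1 gene of the wider list is included but is not reported here.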

Additional observations from a re-analysis of the deposited data

How the results depend on the processing

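Of 125 alternative values for the fold changes of the 9 genes, 108 kept their direction and their side of the threshold, 4 fell short of the threshold (all C4b), 4 passed it and 9 changed sign. Removal of the gene length trend turned C1qa to -0.019, added C1qb (lower) and gave 2 of the 9 genes past the unadjusted threshold in place of 1. Protein-coding genes alone also gave 2, adding Cd59b, and 5 of the wider complement genes against 3, adding C8g and Cd59b. No filter gave 5 of 53 genes of the wider list, and 10 fragments in 3 libraries gave 5 of 40, against 3 of 21. Both added Colec11 (higher) and Vtn (lower). Over all genes the main fit called 1106 of 15206. No filter called 2016 of 35799, and 10 fragments in 3 libraries called 1438 of 20143. Leaving out each library gave 0 to 1 of the 9 genes, 2 to 4 of the wider list and 664 to 2697 of all genes (664 without control-FMT mouse 19, 678 without control-FMT mouse 21, 2697 without alcohol-FMT mouse 18), and 2 genes passed the adjusted threshold without alcohol-FMT mouse 31. Log2 fold changes then ranged from -0.14 to 0.27 for C1qa (negative without control-FMT 21 or alcohol-FMT 24), -0.17 to 0.12 for C1qc (positive without alcohol-FMT 18), -0.18 to 0.033 for C2 (positive without control-FMT 16 or alcohol-FMT 31), -0.16 to 0.46 for C3, 0.22 to 0.36 for C4b, 0.07 to 0.22 for Cfi, 0.16 to 0.34 for Cd59b, and -0.021 to 0.16 for Cd46 (negative without alcohol-FMT 24). The cause was not tested. No paired analysis was possible because the groups share no replicate numbers. With 3 mice a group, the 95% intervals of 7 of the 8 genes tested included 0. That of C4b, 0.03 to 0.53, did not, but its adjusted p was 0.682 by limma. Cfi is limited by its 7 to 17 fragments.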

Other observations

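The proteases C1s1 and C1ra, which sit side by side in the C1 complex, kept a narrow ratio within each group. C1s1 over C1ra was 1.15, 1.17 and 1.26 in control-FMT mice 16, 19 and 21 and 1.30, 1.43 and 1.47 in alcohol-FMT mice 18, 24 and 31. The pair was chosen after the values were seen, and the ratio was not tested. Counting error, 7.64% of the level for C1s1 and 8.83% for C1ra at their mean fragments, also spreads this ratio. Neither its narrow range nor the separation of the groups is shown to exceed counting error. The genes whose profile over the mice was most like that of C3, also chosen after the values were seen, were Mir5620, Gm13123, Gm14276, S100z and Gm6063, at root mean square differences of 0.22 to 0.25. The closest profiles to the mean of the C1q chains lay at 0.036 to 0.049. This measure grows with the spread of a profile, and C3 varied more between mice. The differences therefore do not show which profile had closer companions. S100z, the protein-coding gene among those listed for C3, was highest in mice 18 and 16, as C3 was. In control-FMT mice 16, 19 and 21 it was at 1.66, 1.40 and 0.887 FPKM. In alcohol-FMT mice 18, 24 and 31 it was at 2.38, 1.21 and 1.36 FPKM.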
